A study of Saccharomyces cerevisiae with 14 samples.

Results

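The genes described here are 10 yeast genes that make or take up the precursors of NAD: BNA2, BNA7, BNA4, BNA5, BNA1, BNA6, BNA3, TNA1, NPT1 and QNS1. They are 10 of 5535 genes measured on each of the 14 arrays. They were taken by symbol from the array annotation as named steps of the kynurenine route and of nicotinic acid salvage. The set was chosen by a measured value, the lower RNA level of BNA1 in the strains other than the wild type, and that value is therefore described and not tested. All 10 passed the one filter used, a value on every array, so none was lost.

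Yeast makes NAD from tryptophan through the kynurenine route and also from nicotinic acid taken up or recovered inside the cell. Both branches meet at nicotinic acid mononucleotide and share the last steps. Several of the BNA genes and TNA1 are known to be repressed by Hst1, an NAD-dependent deacetylase that works with Sum1 and Rfm1, so that in yeast their transcription is tied to the NAD level. TAF1, which the series set out to study, encodes a subunit of TFIID, a general factor of RNA polymerase II transcription.

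Two-colour arrays of PCR products compared polyA RNA of each strain with that of a reference strain, yjdi363. There were 7 groups of 2 arrays. The strain carried Cy5 on array 1 and Cy3 on array 2. The strains were FHT-WT1 (yjdi353, whose label names the wild type), DT1 (yjdi355), TF1 (yjdi357), HT4 (yjdi359), PB1 (yjdi361) and null (yjdi381), and in the homotypic pair the reference was set against itself. All cultures, the reference included, were grown in CSM-LEU with 3% raffinose to an OD600 of about 0.7, received 2% galactose for 30 min at 25 °C to induce the TAF1 forms, and were then kept at 37 °C for 45 min. The labels explain neither the codes DT1, TF1, HT4 and PB1 nor the genotype of the reference, and they are silent on whether paired arrays hold RNA of separate cultures. The p-values cover the spread between arrays alone, and that spread may be technical. DT1, TF1, HT4, PB1 and null are called the 5 test strains below.

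A level is given here as the log2 ratio of strain to reference after the median of the array was subtracted, so 0 is the median gene of that array. The array medians ran from -0.18 to 0.41 before this step. Which channel was divided by which is not stated, and strain over reference was assumed from TAF1, at -3.52 and -3.46 on the null arrays against -1.06 to -0.06 on those of the other strains. Differences between groups carry the SE of the limma fit, in which each group has n = 2 arrays. A gene was called where the limma p, adjusted by Benjamini-Hochberg over the 5535 genes, was under 0.05. Across genes the FHT-WT1 arrays correlated at -0.0059, against 0.51 to 0.66 for the pairs of the test strains. The spread of the ratios, as the median absolute deviation of an array, was 0.103 and 0.139 in FHT-WT1 and 0.177 to 0.257 in the test strains. How homotypic array 2 was turned is not settled, since it correlated at -0.36 to -0.30 with array 1 of the strains.

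**Figure D1:**
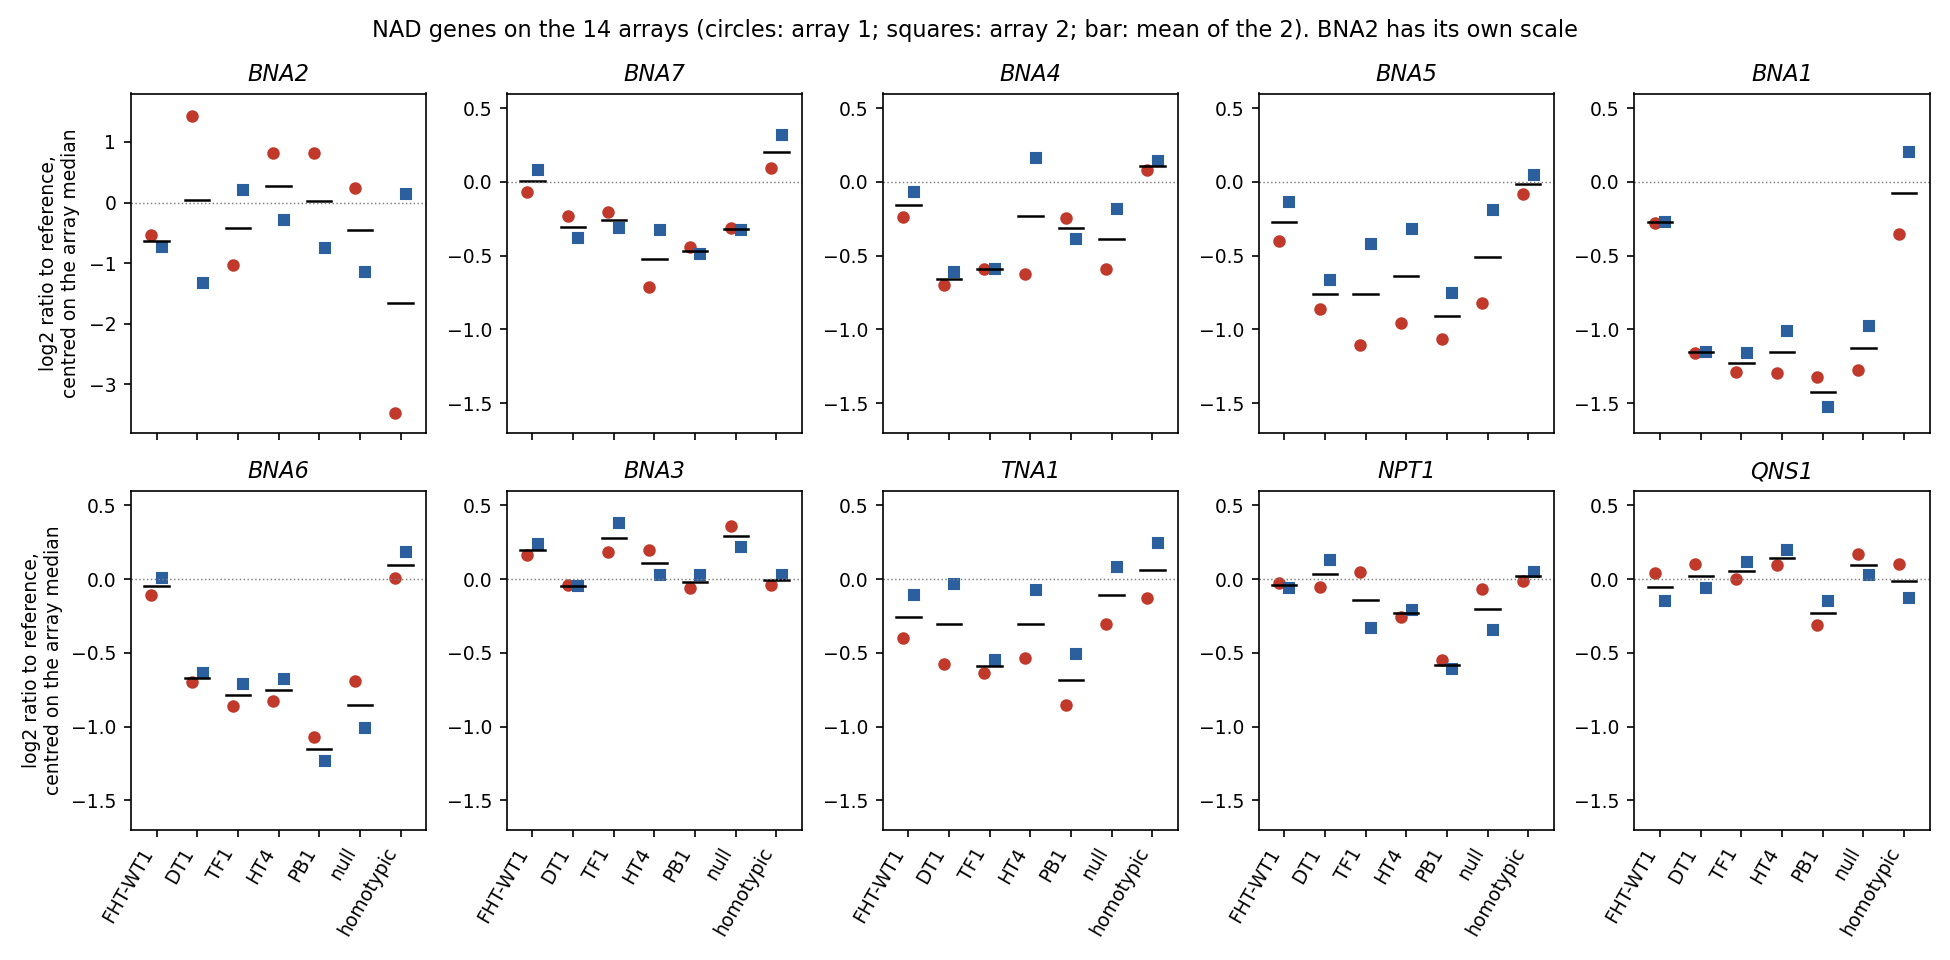
Level of each of the 10 genes on all 14 arrays, as log2 ratio to the reference centred on the array median (vertical axis) by group (horizontal axis). Circles are array 1, squares array 2 and bars the mean of the pair, and BNA2 has a wider vertical axis. BNA1, BNA6 and BNA7 lie lower on all 10 arrays of the test strains than on both FHT-WT1 arrays, as 8.11% of all genes do. BNA1 was chosen for being lower.

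BNA1 (YJR025C) encodes 3-hydroxyanthranilate 3,4-dioxygenase, which forms the precursor of quinolinate late in the kynurenine route. Its level was -0.28 and -0.27 on FHT-WT1 arrays 1 and 2. It was -1.16 and -1.15 in DT1, -1.29 and -1.16 in TF1, -1.29 and -1.01 in HT4, -1.33 and -1.53 in PB1, and -1.28 and -0.98 in null. The homotypic arrays gave -0.35 and 0.20. The 10 test arrays lay between -1.53 and -0.98, all below both FHT-WT1 arrays, and the lowest were the PB1 arrays. The mean of the 5 test strains differed from FHT-WT1 by -0.94 ± 0.12 on the log2 scale, or 1.93-fold lower. Among all 5535 genes ordered from the lowest difference, BNA1 stood at place 8. By strain, the log2 difference from FHT-WT1 was -1.15 in PB1, -0.95 in TF1, -0.88 in both DT1 and HT4 and -0.86 in null, each with an SE of 0.16. These are the values that selected the set.

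BNA6 (YFR047C) encodes quinolinate phosphoribosyltransferase, which closes the kynurenine route by making nicotinic acid mononucleotide. Its level was -0.10 and 0.01 on the FHT-WT1 arrays. It was -0.70 and -0.64 in DT1, -0.86 and -0.71 in TF1, -0.82 and -0.68 in HT4, -1.07 and -1.24 in PB1, and -0.69 and -1.01 in null, against 0.01 and 0.19 in the homotypic pair. No test array reached the FHT-WT1 arrays, which held for 8.11% of all genes, and the PB1 arrays were again the lowest. The mean log2 difference of the 5 test strains from FHT-WT1 was -0.79 ± 0.10, or 1.73-fold lower, at place 22 of the 5535 genes. It ran from -0.62 ± 0.13 in DT1 to -1.11 ± 0.13 in PB1, where it came to 2.15-fold.

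BNA5 (YLR231C), the kynureninase that acts just before BNA1 in the route, had a level of -0.40 and -0.14 in FHT-WT1, -0.86 and -0.67 in DT1, -1.10 and -0.42 in TF1, -0.96 and -0.32 in HT4, -1.06 and -0.75 in PB1 and -0.82 and -0.19 in null. In the homotypic pair it was -0.08 and 0.05. Array 1 was the lower array in each of the 7 groups as deposited, and the test strains overlapped FHT-WT1, with 8 of 10 test arrays below both of its arrays. The mean log2 difference from FHT-WT1 was -0.45 ± 0.12, or 1.36-fold lower.

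BNA7 (YDR428C), the kynurenine formamidase of the second step, had a level of -0.07 and 0.08 in FHT-WT1, -0.23 and -0.38 in DT1, -0.20 and -0.31 in TF1, -0.72 and -0.32 in HT4, -0.44 and -0.49 in PB1 and -0.31 and -0.32 in null. In the homotypic pair it was 0.09 and 0.32. The test arrays all lay below FHT-WT1, as they did for 8.11% of all genes. The distance was small, with a mean log2 difference of -0.38 ± 0.11. BNA4 (YBL098W), kynurenine 3-monooxygenase, ranged from -0.70 to 0.16 over the 10 test arrays with a median of -0.59, against -0.24 and -0.07 in FHT-WT1. Its HT4 arrays stood far apart, at -0.62 and 0.16, and its mean log2 difference from FHT-WT1 was -0.28 ± 0.14.

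BNA2 (YJR078W), the dioxygenase that opens the route by cleaving tryptophan, had no level that its arrays shared. Its arrays 1 and 2 read -0.54 and -0.73 in FHT-WT1, 1.42 and -1.33 in DT1, -1.04 and 0.20 in TF1, 0.82 and -0.29 in HT4, 0.81 and -0.75 in PB1, 0.23 and -1.15 in null and -3.47 and 0.15 in the homotypic pair. All neighbouring groups in the order of levels overlapped. The residual SD of the fit was 1.504, against a median of 0.133 over all genes, and the mean log2 difference from FHT-WT1 was 0.53 ± 0.83. Of its 14 deposited values, 4 matched the log2 ratio of a pair of whole numbers no larger than 12 to within 0.00011. That is 28.6% of them, against 0.811% of values over all named features. Whether the BNA2 spot was near the detection limit was not tested, because channel intensities were not analysed here.

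BNA3 (YJL060W), the aminotransferase that diverts kynurenine to kynurenic acid, ranged from -0.06 to 0.38 over the test arrays against 0.16 and 0.24 in FHT-WT1, with a mean log2 difference of -0.07 ± 0.09. TNA1 (YGR260W), the high-affinity nicotinic acid permease, had a level of -0.40 and -0.11 in FHT-WT1, -0.58 and -0.03 in DT1, -0.64 and -0.55 in TF1, -0.54 and -0.07 in HT4, -0.85 and -0.51 in PB1, and -0.30 and 0.08 in null, with -0.13 and 0.25 in the homotypic pair. Only the TF1 and PB1 pairs lay wholly below FHT-WT1, and the mean log2 difference was -0.14 ± 0.09.

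NPT1 (YOR209C), nicotinate phosphoribosyltransferase, had a level of -0.02 and -0.06 in FHT-WT1, -0.06 and 0.13 in DT1, 0.05 and -0.33 in TF1, -0.26 and -0.21 in HT4, -0.55 and -0.61 in PB1 and -0.06 and -0.34 in null, with -0.01 and 0.05 in the homotypic pair. The PB1 pair stood alone at the bottom, and the mean log2 difference of the test strains from FHT-WT1 was -0.18 ± 0.11. QNS1 (YHR074W), the glutamine-dependent NAD synthetase of the final step, ranged from -0.31 to 0.20 over the test arrays against 0.04 and -0.15 in FHT-WT1. Its mean log2 difference from FHT-WT1 was 0.07 ± 0.10, and its lowest arrays were the PB1 arrays.

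**Figure D2:**
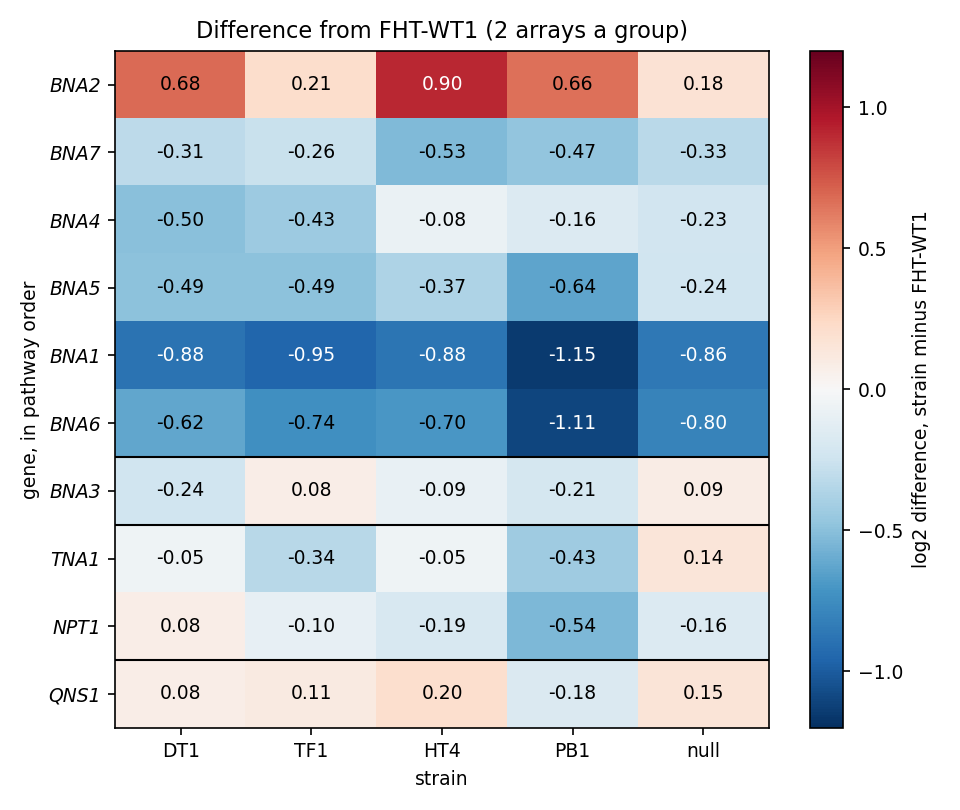
Log2 difference of each strain mean from the FHT-WT1 mean (colour and printed value, 2 arrays a group) for the 10 genes (rows, in pathway order; lines separate the kynurenine route, the side branch, salvage and the last step) and the 5 test strains (columns). The darkest cells are BNA1 and BNA6 in PB1, at -1.15 and -1.11.

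Counted against FHT-WT1, DT1 had 1 of the 10 genes called (BNA1), where 0.903% of all genes were. TF1 had 2 (BNA1 and BNA6), against 3.72% of all genes, and HT4 had 3 (BNA7, BNA1 and BNA6), against 11.7%. PB1 had 5 (BNA5, BNA1, BNA6, TNA1 and NPT1), against 7.35%, and null had 2 (BNA1 and BNA6), against 6.02%. All were lower. BNA1 was chosen for being lower in every strain, so its place in each count was fixed, and without it the count in DT1 is 0. The set was selected on this contrast, so the counts are descriptions. The median log2 difference over the 10 genes was lowest in PB1 at -0.45, followed by -0.30 in TF1, -0.28 in DT1, -0.20 in null and -0.14 in HT4, against -0.01 over all genes in every strain. BNA7, BNA1 and BNA6 lay below both FHT-WT1 arrays on all 10 test arrays, as did 8.11% of all genes. None of the 10 lay above both on all 10, as 4.52% of all genes did.

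The number of calls depended on how the arrays were scaled and on the FHT-WT1 arrays. With the arrays divided by their spread, which was smallest in FHT-WT1 and the homotypic pair, BNA1 was called in 0 of the 5 strains and the mean log2 difference was -0.62. BNA1 was called in 2 strains without FHT-WT1 array 1 and in 3 without array 2. Within each dye orientation, BNA1 was lower in 5 of 5 test strains, with mean log2 differences of -0.99 where the strain carried Cy5 and -0.90 where it carried Cy3. For BNA6 the within-orientation values were -0.72 and -0.87, again in 5 of 5 strains. These counts of 5 follow from every test array of both genes lying below both FHT-WT1 arrays, so they are no further check. For BNA1 they also reuse the values that selected the set.

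FHT-WT1 itself was set against the homotypic pair, a comparison that shares the FHT-WT1 arrays with the contrast above. None of the 10 genes was called by limma (1 at an unadjusted p under 0.05, as 4.97% of all genes were), and 0% of all genes were called. The log2 difference for BNA1 was -0.20 with a 95% interval of -0.54 to 0.14 (limma, Benjamini-Hochberg adjusted p = 0.97). With homotypic array 2 turned the other way it was 0.00. For TNA1 it was -0.31, with an interval of -0.57 to -0.06 (adjusted p = 0.933), and -0.07 with that array turned. The next values use the test arrays on which the set was chosen, so they are descriptions and no independent control. Set against the homotypic pair instead of FHT-WT1, the mean of the 5 test strains was lower by a log2 difference of -1.14 for BNA1, -0.94 for BNA6, -0.70 for BNA5, -0.58 for BNA7, -0.55 for BNA4, -0.46 for TNA1 and -0.24 for NPT1. The SE of these was 0.09 to 0.14. For BNA3, QNS1 and BNA2 the difference was 0.13 ± 0.09, 0.03 ± 0.10 and 1.56 ± 0.83. With homotypic array 2 turned, the same differences were -0.94 for BNA1, -0.75 for BNA6, -0.65 for BNA5, -0.26 for BNA7 and -0.41 for BNA4. They were -0.21 for TNA1, -0.19 for NPT1, 0.16 for BNA3, -0.09 for QNS1 and 1.70 for BNA2. Every gene that was lower before the turn, BNA1 and BNA6 included, had a smaller difference after it. BNA7 and TNA1 shrank the most, and QNS1 changed sign.

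The comparisons among the 5 test strains set no strain against FHT-WT1, and the set was not chosen on a difference between test strains. The choice did require BNA1 to be lower in every test strain, so for BNA1 they are not independent of it. These comparisons ask whether the strain labelled null and the construct strains differ in these genes. Of 100 tests, which are 10 genes in 10 pairs of strains, 1 was called. TNA1 was lower in PB1 than in null by a log2 difference of -0.57 ± 0.12, with a 95% interval of -0.83 to -0.31 (limma, Benjamini-Hochberg adjusted p = 0.0448). Both PB1 arrays lay below both null arrays. The call was lost in 10 of 14 fits with an array left out and in 5 of 7 other settings, among them centring on the mode and no dye term, with a log2 difference of -0.59 to -0.55 over the omissions. The next lowest adjusted p among the 100 was 0.0776 (limma), for NPT1 in DT1 against PB1, where the log2 difference was 0.62 with an interval of 0.32 to 0.91.

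Over all genes, 0.0723% were called between DT1 and null, 0.0542% between TF1 and null, 0.506% between HT4 and null and 1.17% between PB1 and null. Between construct strains the shares were 0% for DT1 against TF1, 0.0542% for DT1 against HT4, 0.289% for DT1 against PB1, 0% for TF1 against HT4, 0.289% for TF1 against PB1 and 0.632% for HT4 against PB1. In these 6 pairs limma called 0 of the 10 genes, with 1 to 4 at an unadjusted p under 0.05, as 2.08% to 17.3% of all genes were. Against null it called 0 in DT1, TF1 and HT4, where 1, 1 and 0 genes reached an unadjusted p under 0.05 (10%, 5.96% and 11.5% of all genes). In PB1 against null 6 of the 10 genes reached it, against 16.7% of all genes, and 8 of the 10 were lower in PB1, with a median log2 difference of -0.30. In the test of any difference among the 5 strains (moderated F in limma), 0 of the 10 genes were called, while 0.614% of all genes were. An unadjusted p under 0.05 was found for 4 of the 10 and for 15% of all genes.

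No difference between test strains was called for BNA1, whose lower level in every test strain had selected the set. The greatest one was -0.30 for PB1 minus null, with a 95% interval of -0.64 to 0.04 (limma, Benjamini-Hochberg adjusted p = 0.37), and the F test over the 5 strains gave an adjusted p of 0.648. The order of the BNA1 means was PB1, TF1, DT1, HT4, null, FHT-WT1 and homotypic. The arrays of PB1 and TF1, of TF1 and DT1, and of null and FHT-WT1 did not overlap, and those of DT1 and HT4, HT4 and null, and FHT-WT1 and homotypic did. TF1 and DT1 all but touched, at -1.1614 on TF1 array 2 and -1.1604 on DT1 array 1. BNA6 followed the order PB1, null, TF1, HT4, DT1, FHT-WT1 and homotypic, where only PB1 and null, and DT1 and FHT-WT1, were neighbours without overlap. How often neighbouring groups lie apart over all genes was not counted, so these orders are descriptions.

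PB1 was the lowest of the 5 test strains in 6 of the 10 genes, BNA5, BNA1, BNA6, TNA1, NPT1 and QNS1. For BNA1, BNA6, NPT1 and QNS1, both PB1 arrays lay below all 8 arrays of the other test strains, as they did for 3.94% of all genes. No gene of the set lay below in that way in DT1, TF1, HT4 or null, where the shares over all genes were 1.93%, 0.434%, 1.81% and 1.75%. After these values had been seen, PB1 was set against the mean of DT1, TF1, HT4 and null. By limma 0 of the 10 genes were called, and 2.31% of all genes were. At an unadjusted p under 0.05 there were 4 of the 10 and 19.4% of all genes.

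The log2 difference of PB1 from that mean was -0.45 for NPT1 (95% interval -0.68 to -0.21; limma, Benjamini-Hochberg adjusted p = 0.0531), -0.35 for TNA1 (-0.56 to -0.15; adjusted p = 0.0701) and -0.39 for BNA6 (-0.62 to -0.16; adjusted p = 0.0773). It was -0.31 for QNS1 (-0.53 to -0.10; adjusted p = 0.123) and -0.26 for BNA1 (-0.53 to 0.01; adjusted p = 0.269). These genes stand in uptake, salvage, the end of the kynurenine route and the last step, and none passed the threshold.

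**Figure D3:**
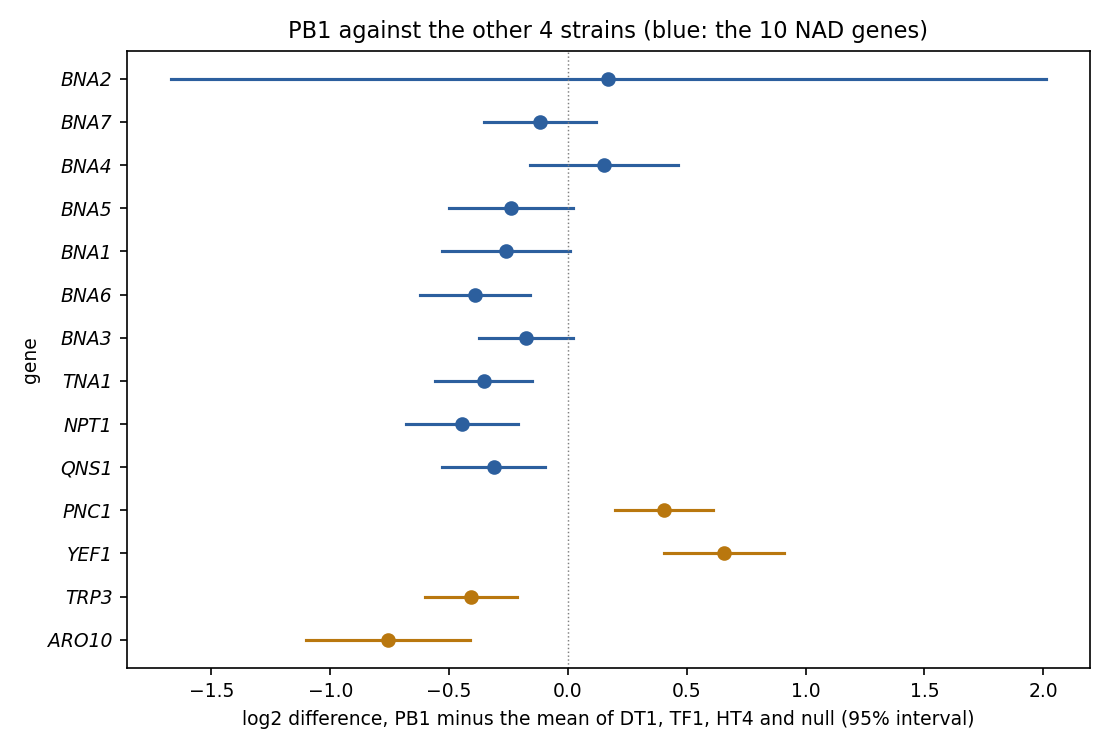
Log2 difference of PB1 from the mean of DT1, TF1, HT4 and null (horizontal axis; point with 95% interval) for the 10 genes (blue) and for the 4 other NAD and tryptophan genes that were called (orange). The interval of BNA2 runs from -1.67 to 2.01, and those of BNA6, TNA1, NPT1 and QNS1 lie below 0.

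A further 31 genes of NAD and tryptophan metabolism, listed by role, showed what lay around the set. In the comparison of PB1 with the mean of the other test strains, 4 of the 31 were called by limma, 2 higher and 2 lower, and they are named because the count is small. PNC1, the nicotinamidase that recycles nicotinamide, was higher by 0.41 (95% interval 0.20 to 0.61; Benjamini-Hochberg adjusted p = 0.0493). Its level was 1.25 and 0.51 in PB1, with array 1 above array 2 in FHT-WT1 and in each test strain. YEF1, an NAD kinase, was higher by 0.66 (0.41 to 0.91; adjusted p = 0.0209), at 0.65 and 0.79 in PB1 against -0.08 to 0.27 on the other arrays of the test strains. TRP3, of tryptophan synthesis, differed by -0.41 (-0.60 to -0.22; adjusted p = 0.0433), and ARO10, a decarboxylase of aromatic amino acid breakdown, by -0.76 (-1.10 to -0.41; adjusted p = 0.0382). ARO10 stood at -0.75 and -0.23 in PB1, and without PB1 array 1 its difference was -0.31 and was not called. Of 14 fits with an array left out, the call was lost in 11 for PNC1, 10 for TRP3, 9 for ARO10 and 3 for YEF1, and of 7 other settings in 5, 4, 4 and 2. In the 10 pairs of test strains limma called 0 of the 31, where 0 to 12 reached an unadjusted p under 0.05 (0% to 38.7%, against 2.08% to 17.3% of all genes), and between FHT-WT1 and the homotypic pair it called 0, where 0 did.

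Against FHT-WT1, limma called 0 of the 31 in DT1 and TF1 (5 and 7 at an unadjusted p under 0.05, or 16.1% and 22.6% against 17.4% and 20.2% of all genes). In HT4 it called 3 (NRK1, URH1 and POF1, all lower), or 9.68%, under the 11.7% of all genes. In PB1 it called 4 (PNC1 and YEF1 higher, NRK1 and ARO10 lower), or 12.9% against 7.35%, and in null 3 (NRK1, SIR2 and TRP1, all lower), or 9.68% against 6.02%. Their median log2 difference lay between -0.10, in PB1, and 0.04, in null. NRK1, the kinase that brings nicotinamide riboside into NAD synthesis, had the lowest mean log2 difference of the 31, -0.57 ± 0.11. Its level was -0.08 and 0.26 in FHT-WT1 and -0.76 to -0.28 on the test arrays, with no overlap. NRK1 was called in 3 strains, also with centring on the mode. It was called in 1 with the arrays as deposited or homotypic array 2 reversed. Scaled by spread or without the dye term it was called in 0. TRP1, of tryptophan synthesis and a common auxotrophic marker, followed at -0.44 ± 0.11, and URH1, a nucleosidase, at -0.29 ± 0.09. TRP1 was called in 1 strain, and in 2 with centring on the mode. As deposited, scaled by spread or without the dye term it was called in 0. Whether the strains differ in a TRP1 marker is not given in the labels and was not tested.

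The highest of the 31 were YIA6, a mitochondrial NAD carrier, at a mean log2 difference of 0.41 ± 0.14, HST3, a sirtuin, at 0.27 ± 0.11, and SUM1, the DNA-binding partner of Hst1, at 0.20 ± 0.09. The level of SUM1 was -0.01 to 0.29 on the test arrays and -0.04 on each FHT-WT1 array. HST1 had a mean log2 difference of 0.19 ± 0.11 and RFM1 of 0.07 ± 0.10. Of the 31, 4 (NRK1, URH1, POF1 and TRP1) lay below both FHT-WT1 arrays on all 10 test arrays, as 8.11% of all genes did, and 1 (SUM1) lay above, as 4.52% of all genes did.

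**Figure D4:**
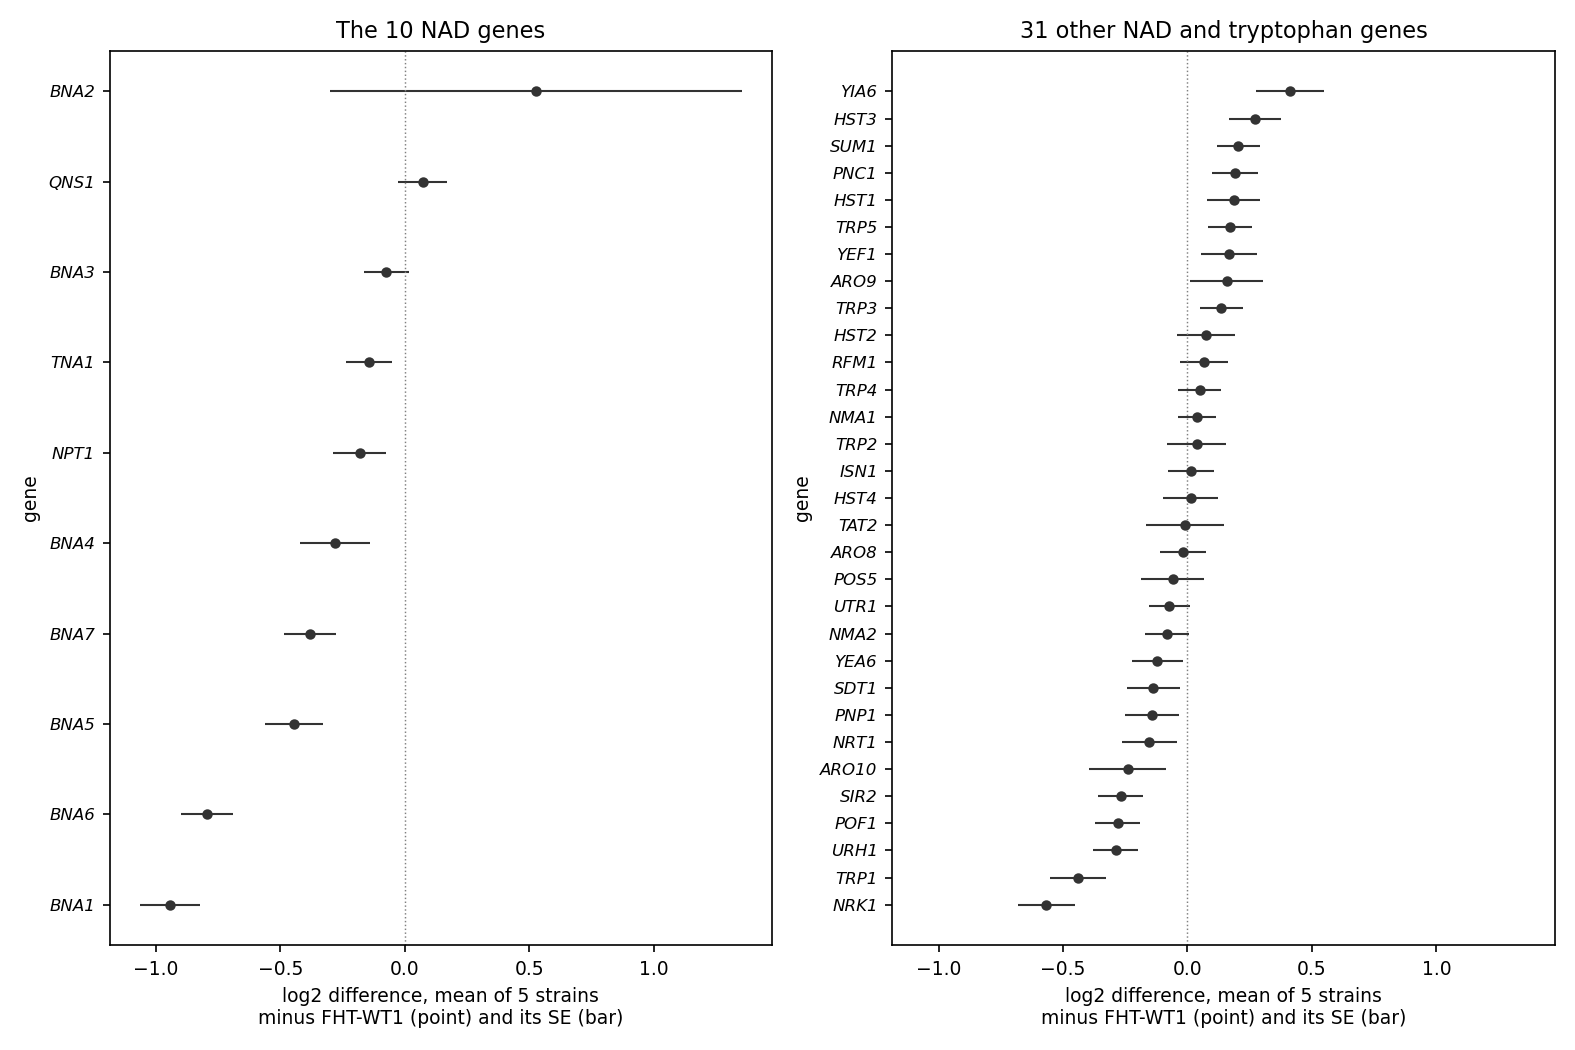
Log2 difference of the mean of the 5 test strains from FHT-WT1 (horizontal axis; point, with SE as bar) for the 10 genes of the set (left) and 31 other NAD and tryptophan genes (right), each sorted. BNA1 at -0.94 and BNA6 at -0.79 lie lower than any of the 31, of which NRK1 is the lowest at -0.57.

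Some levels also differed between arrays 1 and 2, which have opposite dye orientations. The array number is also the replicate block, so dye and replicate cannot be told apart. The term for dye orientation was called for 2 of the 10 genes, BNA5 with a log2 difference of array 1 minus array 2 of -0.41 ± 0.08 (limma, Benjamini-Hochberg adjusted p = 0.00308) and TNA1 with -0.36 ± 0.06 (adjusted p = 0.0018). Over all genes 35.0% were called, and 7 of the 31 other NAD and tryptophan genes. For BNA1 the dye term was -0.15 ± 0.08 (adjusted p = 0.166) and for BNA6 -0.02 ± 0.07 (adjusted p = 0.819). BNA5 and TNA1 were lower on array 1 in FHT-WT1 and in each test strain. In the homotypic pair both were too as deposited, but TNA1 was not with array 2 turned. With that array turned the dye term was -0.39 for BNA5 (adjusted p = 0.016) and -0.29 for TNA1 (adjusted p = 0.0354).

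The genes most like BNA1 over the 14 arrays were found by Pearson correlation of the centred levels, as a description, since the arrays share the reference and come in 7 groups. The arrays also hold the contrast with FHT-WT1 on which BNA1 was chosen. SNO2 (r = 0.98), SNO3 (0.97), URA5 (0.97), CFF1 (0.96) and YER010C (0.96) came first, and the median over all genes was 0.01. URA5 encodes an orotate phosphoribosyltransferase of pyrimidine synthesis. The level of SNO2 was -0.07 on average in FHT-WT1 and -0.90 to -0.54 on the test arrays. PTR2, the transporter of small peptides, was the most opposite (r = -0.97), with an average of 0.17 in FHT-WT1 and levels from 0.69 upwards on the test arrays. GPI10 (-0.93) and YGL176C (-0.92) came next.

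Within the set, which was chosen for BNA1, the likeness to BNA1 was 0.94 for BNA6, at rank 18 of all genes, 0.89 for BNA7, 0.81 for BNA5, 0.69 for BNA4, 0.63 for TNA1 and 0.52 for NPT1. For BNA3, QNS1 and BNA2 it was -0.08, -0.09 and -0.31. The arrays of BNA2 shared no level, with a residual SD of 1.504 against a median of 0.133 over all genes. Its value therefore says little about the first step of the route.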

How the data were processed

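The deposited table holds log2 ratios of 2 channels for 7056 features on 14 arrays. Per the series text, the authors brought dye swap arrays to a common mode in R, followed by a correction from B. subtilis RNA spiked into each culture. Scanner, background and spot filters are not given in the sources used here. Of the features 5579 carry a gene name. They give 5548 genes, 5543 of which matched the R64 annotation, used for names only. Features of 1 gene were averaged (30 genes), and 13 genes with a missing value were left out, which leaves 5535. Each array was centred on its median, which also takes out any shift of a whole array that remained after the spike correction. Differences are therefore relative to the median gene, and RNA amounts per culture were not compared.

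All arrays entered 1 limma 3.58.1 model in R 4.3.3 (lmFit, eBayes) with a mean for each of 7 groups and a dye orientation term, tested two-sided with Benjamini-Hochberg adjustment and a threshold of 0.05. The array number is the dye orientation, so this term is also the replicate block. The fit had 6 residual and 5.98 prior degrees of freedom. The code was tested on simulated data. The number of arrays limits the precision.

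The members and lists were chosen with earlier results of these data known. Named genes were TAF1, the 10 members, of 31 other NAD and tryptophan genes those called among the test strains or between FHT-WT1 and the homotypic pair and the 3 with the greatest and the 3 with the lowest mean difference from FHT-WT1, and the 5 genes most and 3 least like BNA1. Genes outside this rule (PNC1, YEF1, TRP3, ARO10, POF1, SIR2, HST1 and RFM1) were named after their values were seen. PNC1, YEF1, TRP3 and ARO10 come from the comparison of PB1 with the mean of the other test strains, which was itself added after seeing the data, as was the count of arrays that did not overlap between test strains. Alternatives were the arrays as deposited, centring on the mode, scaling by spread, no dye term, homotypic array 2 reversed, robust eBayes, a looser filter on missing values, and each array left out in turn.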

Additional observations from a re-analysis of the deposited data

Results flagged for a closer look

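A total of 5 results were marked because PB1 differed from other test strains by a test of the difference itself. The log2 difference of TNA1 in PB1 minus null was -0.57. The others come from a comparison that was added after the data were seen. Against the mean of DT1, TF1, HT4 and null, the log2 difference of PB1 was 0.41 for PNC1, 0.66 for YEF1, -0.41 for TRP3 and -0.76 for ARO10. In that comparison 4 of 31 other NAD and tryptophan genes were called by limma, against 2.31% of all genes. Their calls changed with single arrays, as given under the processing. The test of any difference among the 5 strains (moderated F in limma) called none of these 4, with adjusted p from 0.115 to 0.191.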

How the results depend on the processing

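No result changed direction past its threshold under any alternative. The call of TNA1 between PB1 and null was fragile. The count of 1 call between null and a construct strain went to 0 with the arrays as deposited, with centring on the mode, with scaling by spread, without the dye term that serves as the replicate block and with homotypic array 2 reversed, and it ranged from 0 to 1 with each array left out. It was 0 without either array of DT1, HT4, PB1, null or the homotypic pair. The log2 difference held at -0.59 to -0.55 over these omissions, and the adjusted p ranged from 0.0407 to 0.609 over all alternatives. Between pairs of construct strains the count was 0, and 1 without either null array (NPT1 in DT1 against PB1). The F test and the comparison of FHT-WT1 with the homotypic pair gave 0 calls throughout. The dye term gave 2 calls, 0 as deposited, and 2 whichever array was left out. Calls of members against FHT-WT1 numbered 13, with 7 as deposited, 1 scaled by spread, 4 without the dye term (no replicate block) and 4 to 14 with an array left out, 4 and 5 without FHT-WT1 array 1 or 2. The mean BNA1 difference was -0.62 when scaled by spread and -1.03 to -0.86 with an array left out. TNA1 had a mean difference from FHT-WT1 of -0.14 and of 0.09 when scaled by spread, and QNS1 ranged from -0.01 to 0.16 with an array left out. BNA6 was called in 4 strains, and in 2 without either FHT-WT1 array. The calls of PNC1, YEF1, TRP3 and ARO10 in PB1 were lost in 11, 3, 10 and 9 of 14 omissions and in 5, 2, 4 and 4 of 7 other alternatives. The cause of these changes was not tested. Signal over background was not analysed here.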
